A study of Mus musculus with 23 samples.

Results

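Mycn, Myc, Mycl and Max are 4 of the 32285 genes listed in each of 11 droplet gene-expression libraries of mouse KSL cells, the c-Kit-positive, Sca1-positive, lineage-negative fraction of bone marrow that holds blood stem cells and early multipotent progenitors. They are taken by gene name from all 11 libraries, and were chosen with earlier results of these data known. Every mouse carried Mx1-Cre, a recombinase whose promoter answers to interferon, Controls included. The baseline experiment used mice 2 months old, in 3 groups, Control, Ezh2 KO (floxed Ezh2) and Jarid2 KO (floxed Jarid2), each with a male library (replicate 1) and a female one (replicate 2). In the transplant experiment, donor KSL cells were recovered from primary recipients 18 weeks after 500000 donor marrow cells had been given together with competitor cells. That experiment has 1 Control, 2 Ezh2 KO and 2 Jarid2 KO libraries, and the labels give no sex. Mx1-Cre acts in several blood and non-blood tissues. It is not stated whether the libraries of a group come from separate animals beyond the sex label. P-values therefore measure the spread between these libraries only, estimated partly from all genes together. The series' chromatin samples were not analysed here.

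The MYC proteins are transcription factors that bind DNA, at the E-box and related sites, only as a pair with Max. Max also pairs with the Mxd proteins, Mnt and Mga, which repress many of the genes that MYC activates, so the MYC and Mxd proteins compete for a common partner. Myc (c-Myc) drives ribosome production and growth in most dividing cells. Mycn (N-Myc) is best known from embryonic tissue and neuroblastoma and is also transcribed in blood stem cells, while Mycl (L-Myc) is known in blood mainly from dendritic cells. Ezh2 is the catalytic subunit of Polycomb repressive complex 2, which methylates histone H3 at lysine 27, and Jarid2 is an accessory subunit of that complex.

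The 4 genes lie on 3 chromosomes (RefSeq annotation, GRCm38.p6). Mycn (ENSMUSG00000037169) spans chr12:12936093-12941836 and Max (ENSMUSG00000059436) chr12:76937269-76962323. Myc (ENSMUSG00000022346) spans chr15:61985341-61990361 and Mycl (ENSMUSG00000028654) chr4:122995588-123002490. The bases just before the Mycn start are shown because Mycn is the member that was called between genotypes in whole libraries. They also hold letters of the E2F motif, a site read by factors that switch genes with the cell cycle. Any link of this motif to the level of Mycn was not tested. The 30 bases around the Max start of RefSeq's promoter table are shown because they hold a perfect E-box, the site of the MYC-Max pair itself. Both are from RefSeq, GRCm38.p6, minus strand, 5′ to 3′, with matches in capitals. The starts used for Max (chr12:76962248) and Mycl (chr4:122995931) lie 75 and 343 bases inside the gene spans above. The first covers chr12:12941837-12942086 and the second chr12:76962234-76962263.
Mycn, 250 bases before the start: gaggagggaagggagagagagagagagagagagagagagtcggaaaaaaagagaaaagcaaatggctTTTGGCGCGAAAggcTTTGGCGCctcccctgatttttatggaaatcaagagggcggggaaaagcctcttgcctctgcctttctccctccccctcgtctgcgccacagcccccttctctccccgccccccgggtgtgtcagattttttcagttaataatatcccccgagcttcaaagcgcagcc
Max, around the start: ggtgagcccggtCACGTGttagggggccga
The E2F motif was searched as TTTCCCGC, TTTCGCGC, TTTGCCGC or TTTGGCGC on both strands, in the 250 bases before to 50 bases after each start. It matched Mycn at positions -183 to -176 and -168 to -161 on the gene's strand, and at -179 to -172 on the other strand, overlapping the first match. Such a match was held by 744 of 32851 such windows over the mouse genome, some genes having several (2.27%). CACGTG was matched in Max at positions -3 to 3, and in 2349 windows (7.15%). Neither motif was matched in the same window of Mycl. Myc was not searched, since no promoter entry for it was found. A match describes the letters only. The Mycn window held 14 CpG dinucleotides, more than 63.7% of windows, against 22 in Mycl and 30 in Max.

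Raw UMI (unique molecular identifier) counts, 1 per captured transcript, were added up over each library's kept cells and are given as CPM, the usual scaling of a count to a fixed total per library. Kept cells numbered 6723 to 9208 per baseline library and 4354 to 6149 per transplant library, with 67618707 to 126527222 UMIs, so a gene with no UMI in a library could still reach 0.0237 to 0.0444 CPM (3 counts). The 2 experiments were processed separately, and levels are not compared between them. Transplant libraries stood apart: 25.7% to 43.4% of their barcodes exceeded the mitochondrial limit, against 2.82% to 5.82% at baseline, and 80.7% to 90.6% of kept cells had at least 3 of 7 myeloid markers, against 1.87% to 6.27%. Any 2 libraries shared at most 31 cell barcodes, and in any pair at most 0.392% of those of the smaller library. The libraries labelled Ezh2 KO had 38.8 and 47.1 CPM of Ezh2 after transplantation against 185 in Control, but 163 and 148 against 209 and 193 at baseline, where the change was not called (edgeR adjusted p = 0.0599). Jarid2 was higher, not lower, in the libraries labelled Jarid2 KO: 215 and 205 CPM against 159 and 150 in Control at baseline, and 57.3 and 57.1 against 38.6 after transplantation. Counts of 3′ tags check a deletion only where they fall inside it, and no source used here names the removed exons. Below, Jarid2 KO and Ezh2 KO mean the libraries so labelled.

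At baseline Mycn was highest in the Jarid2 KO libraries. Its level was 27.3 and 29.1 CPM in Control, 28.6 and 34.4 in the Ezh2 KO libraries, and 46.2 and 54.7 in those of Jarid2 KO (replicates 1 and 2). Both Jarid2 KO libraries lay above all the others, while Control and Ezh2 KO overlapped, and the female library was the higher one in each group. Mycn rose by 0.86 on the log2 scale in Jarid2 KO against Control (SE 0.05, 1.81-fold, edgeR quasi-likelihood test with Benjamini-Hochberg adjustment, two-sided, adjusted p = 0.0437) and by 0.66 against Ezh2 KO (SE 0.05, adjusted p = 0.0140). It was 1 of 6 genes called in Jarid2 KO against Control (0.033% of 18177 tested); 5.91% of genes were called between the knockouts. The call between the knockouts was lost without Jarid2 KO 1 (0.70, edgeR adjusted p = 0.0639), without the sex term (0.0905) and in cells with at most 1 lymphoid marker (0.50, 0.115). The difference of Ezh2 KO from Control, 0.20 (SE 0.05), was not called (edgeR adjusted p = 0.102; 3.47% of genes called). The call against Control lay close to the threshold: adjusted p over 16 alternatives ran from 7.29e-20 to 0.234 with the change between 0.72 and 0.93. It held in 7 of the 16 and was lost without any 1 of Control 2, the Ezh2 KO libraries or the Jarid2 KO libraries, without the sex term (0.234), and in cells with at most 1 lymphoid marker (0.172).

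After transplantation both knockouts had more Mycn than the Control library, and the order of the knockouts was the opposite of that at baseline. Control had 6.39 CPM (exact Poisson 95% interval 5.80 to 7.02, counting error only), Ezh2 KO 27.6 and 27.4, and Jarid2 KO 16.8 and 19.5. No groups overlapped. The share of barcodes over the mitochondrial limit ran in the reverse order, at 43.4% in Control, 36.6% and 37.5% with Jarid2 KO and 25.7% and 27.4% with Ezh2 KO. Against the single Control, which is assumed to vary like the knockouts, Mycn rose by 2.03 in Ezh2 KO (log2, SE 0.12, 4.07-fold, edgeR adjusted p = 7.84e-04; 4.84% of genes called) and by 1.45 in Jarid2 KO (SE 0.12, 2.73-fold, adjusted p = 0.0155; 0.336% called). Between the knockouts it was lower in Jarid2 KO by 0.58 (log2 change -0.58, SE 0.09, edgeR adjusted p = 0.00942; 12% called). In cells with at most 5% mitochondrial UMIs, at least 3000 UMIs and 1500 genes, the 3 changes were 1.89, 1.39 and -0.50, all called (edgeR adjusted p = 0.00248, 0.0409 and 0.0479). The call between the knockouts was lost without Ezh2 KO 1 (adjusted p = 0.0677), and the call of Jarid2 KO against Control was lost in cells with at most 1 lymphoid marker (1.00, adjusted p = 0.0635). No comparison with Control can be made without its only library. Kept cells with a Y-linked and no Xist UMI numbered 807 of 4354 in Control. They were 4524 of 6149 and 4031 of 5867 in the Ezh2 KO libraries, and 1393 of 5069 and 1620 of 5032 in those of Jarid2 KO. Their share thus differed between the groups, and the transplant fits had no sex term. In those cells alone Mycn was at 5.91 CPM in Control, 26.0 to 27.5 in Ezh2 KO and 15.6 to 18.7 in Jarid2 KO. The Jarid2 KO change was 1.48 there and not called.

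**Figure D1:**
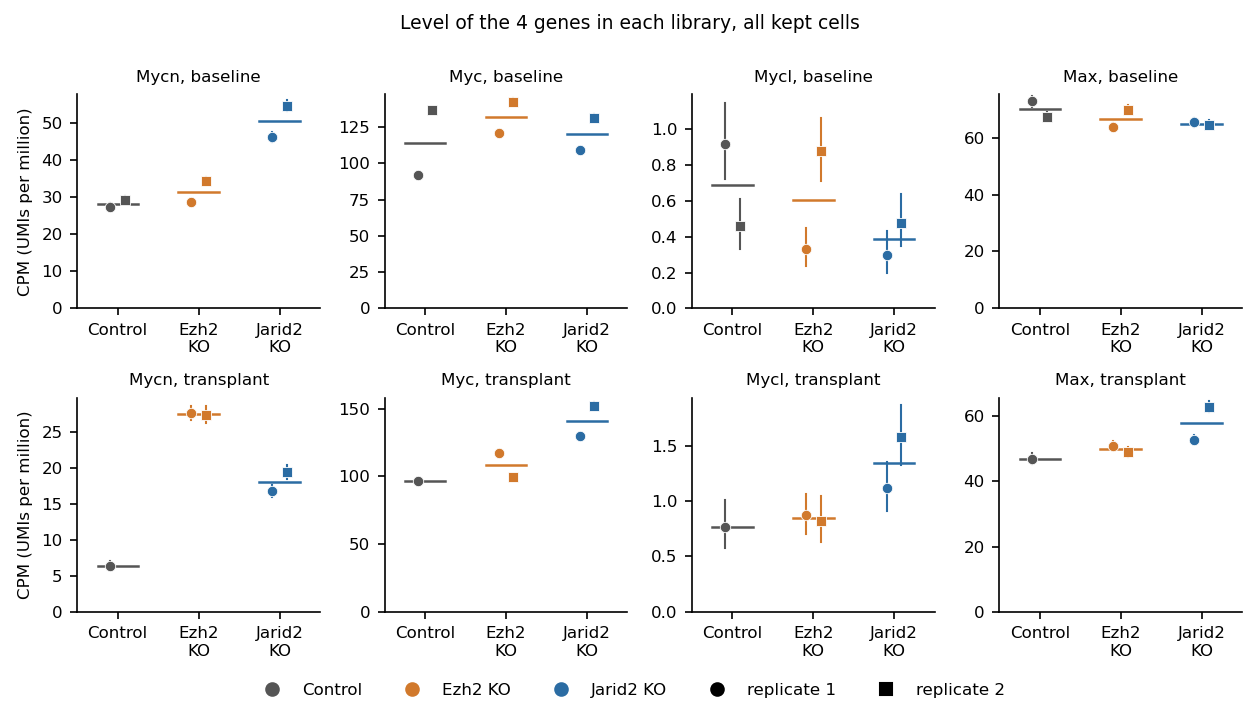
Level of each member in each library, in CPM, by group and experiment; vertical lines are exact Poisson 95% intervals (counting error only) and horizontal bars are group means. Mycn sits at 46.2 and 54.7 CPM in baseline Jarid2 KO, above the other 4 baseline libraries, and at 6.39 CPM in the transplant Control, below the other 4 transplant libraries, while the baseline ranges of Myc and Mycl overlap between all groups.

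The difference between the experiments was tested in 1 fit over all 11 libraries, with no sex term. The Ezh2 KO change of Mycn against Control was larger after transplantation by 1.83 (log2, SE 0.19, edgeR adjusted p = 0.0120, 0.0561 without transplant Ezh2 KO 1; 0.317% of genes called), and the Jarid2 KO minus Ezh2 KO difference was lower by 1.23 (log2 difference -1.23, SE 0.16, adjusted p = 0.0110; 2.46% called). For Jarid2 KO against Control the difference, 0.60 (SE 0.19), was not called (edgeR adjusted p = 0.803; 0% of 18938 genes called by edgeR, with 964 at an unadjusted p below 0.05). Experiment, cell composition and software version changed together and cannot be told apart here. The comparisons within an experiment share their Control libraries and are not independent. Myc, Mycl and Max showed no called difference in any of these tests.

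**Figure D2:**
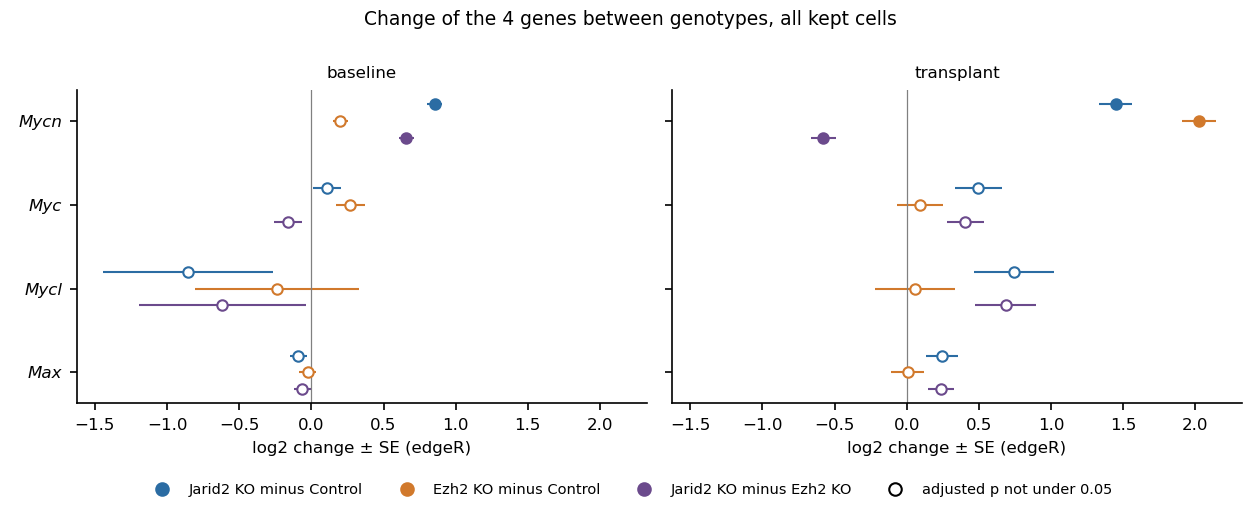
Log2 change of each member in each genotype comparison and experiment, with its SE; filled points have an edgeR adjusted p below 0.05. Mycn is the one member with filled points: 2 of 3 comparisons at baseline (0.86 and 0.66) and 3 of 3 after transplantation (2.03, 1.45 and -0.58).

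The share of cells with a Mycn transcript moved with the level. With each cell thinned to 5000 UMIs and shallower cells left out (5.01% to 7.83% of kept cells at baseline, 4.44% to 14.2% after transplantation), Mycn was detected in 12.4% and 13.8% of baseline Control cells, 13.2% and 16.1% of Ezh2 KO cells, and 19.7% and 23.7% of Jarid2 KO cells. After transplantation the shares were 4.34% in Control (exact binomial 95% interval 3.71% to 5.04%), 14.9% and 14.5% in the Ezh2 KO libraries, and 9.01% and 9.72% in those of Jarid2 KO. Within each experiment the libraries stood in the same order by share as by CPM. Without thinning the shares were 22.2% to 40.3% at baseline and 7.46% to 29.2% after transplantation. Of baseline cells with at least 3 of 8 B-cell markers, 0% to 2.01% had a Mycn UMI, again thinned to 5000 UMIs. Their median depth before thinning was 11152 to 15345 UMIs, against 10764 to 12661 over all kept cells. After transplantation only the Ezh2 KO libraries had at least 50 such cells, with 4.56 to 5.22 CPM of Mycn. Whether such cells lack Mycn was not tested, so these values set no background for the whole transplant Control library, at 6.39 CPM. No single cell held more than 17 Mycn UMIs. From summed counts, fewer Mycn-expressing cells and less Mycn per cell cannot be told apart.

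Cells were next grouped by detection of marker genes at 5000 UMIs. A stem-marker cell had at least 3 of 10 stem markers (such as Hlf, Mecom, Procr and Fgd5) and at most 1 of 10 lymphoid markers (Dntt, Flt3, Il7r, Rag1, Satb1, Ccr9, Notch1, Ighm, Cd79a, Ebf1), and a lymphoid-marker cell the reverse. A cycling-marker cell had at least 4 of 12 mitotic genes such as Mki67 and Top2a, and a non-cycling cell at most 1. These are ranges of a count, not cell types: 40.4% to 51.9% of the baseline cells at 5000 UMIs had a number of stem markers on either side of the lower bound. Stem-marker cells made up 20.7% to 37.1% of kept cells at baseline and 4.83% to 7.16% after transplantation, where the smallest class held 245 cells.

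Mycn was higher in stem-marker than in lymphoid-marker cells. In baseline stem-marker cells its level was 47.5 and 47.7 CPM in Control, 52.3 and 52.9 in the Ezh2 KO libraries, and 71.5 and 79.6 in those of Jarid2 KO. In lymphoid-marker cells of the same libraries it was 6.49 and 11.8, 11.0 and 17.5, and 15.9 and 19.4. Every stem-marker value was above every lymphoid-marker value, with a difference of 1.95 (log2, SE 0.13, 3.87-fold, edgeR with library as a block, adjusted p = 9.98e-07; 69.6% of genes called). After transplantation the levels were 29.7 CPM in stem-marker and 5.83 in lymphoid-marker cells of Control, 74.1 and 74.3 against 30.9 and 28.4 in Ezh2 KO, and 79.0 and 97.0 against 21.2 and 27.9 in Jarid2 KO. Stem-marker cells were the higher in all 5 libraries (1.52, SE 0.11, 2.86-fold, edgeR adjusted p = 1.36e-08; 54.4% called). They gave 36.2% to 54.1% of baseline Mycn UMIs but 19.8% to 35.3% of all UMIs, and after transplantation 11.4% to 22.5% against 3.89% to 4.94%.

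Cycling-marker cells held less Mycn than non-cycling cells. At baseline the levels were 11.8 to 21.2 CPM in cycling-marker cells (median of 6 libraries 13.6) and 36.0 to 74.5 in non-cycling cells (median 46.5). No cycling value reached the lowest non-cycling one, and Mycn was lower by 1.54 (log2 change -1.54, SE 0.05, edgeR adjusted p = 2.11e-09; 74.4% of genes called). After transplantation the Control library had 3.27 CPM in cycling-marker and 10.8 in non-cycling cells. The Ezh2 KO libraries had 13.8 and 14.3 against 48.1 and 46.1, and the Jarid2 KO libraries 9.70 and 9.84 against 26.98 and 32.8. Cycling-marker cells were the lower in every library (log2 change -1.60, SE 0.05, edgeR adjusted p = 1.15e-09; 66.8% called).

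**Figure D3:**
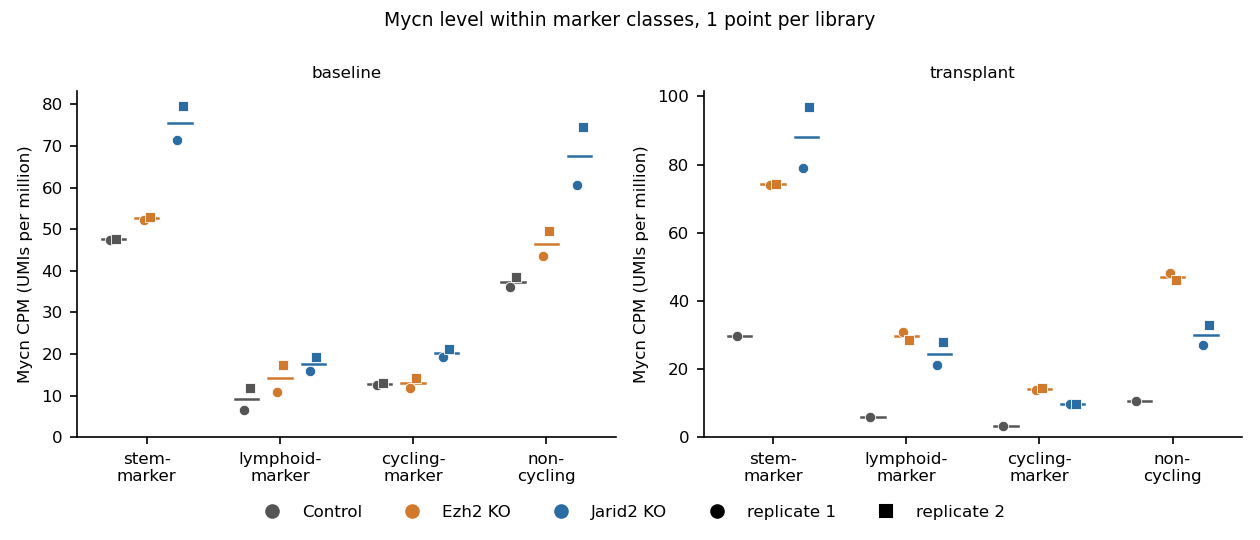
Mycn level in CPM in stem-marker, lymphoid-marker, cycling-marker and non-cycling cells, 1 point per library, by group and experiment; lines are group means. Stem-marker cells lie highest in both experiments, at 47.5 to 79.6 CPM at baseline, and the transplant Control is the lowest library in all 4 classes.

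Detection followed the number of markers. The median share of baseline cells with a Mycn UMI was 4.65% with no stem marker (range over 6 libraries 3.08% to 6.68%) and 26.98% with 5 or more (23.6% to 36.0%). After transplantation it was 3.55% (2.19% to 7.52% over 5 libraries) and 38.5% (20.8% to 44.1%), the latter from as few as 48 cells in a library. With no cycling marker the median share was 18.8% at baseline and 15.0% after transplantation, and with 6 or more it was 6.18% and 5.94%. Lymphoid markers gave no single direction: the median went from 20.8% with none to 8.81% with 5 or more at baseline, and from 7.29% to 12.3% after transplantation, where the Control library went the other way, from 5.61% to 3.13% (128 cells).

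**Figure D4:**
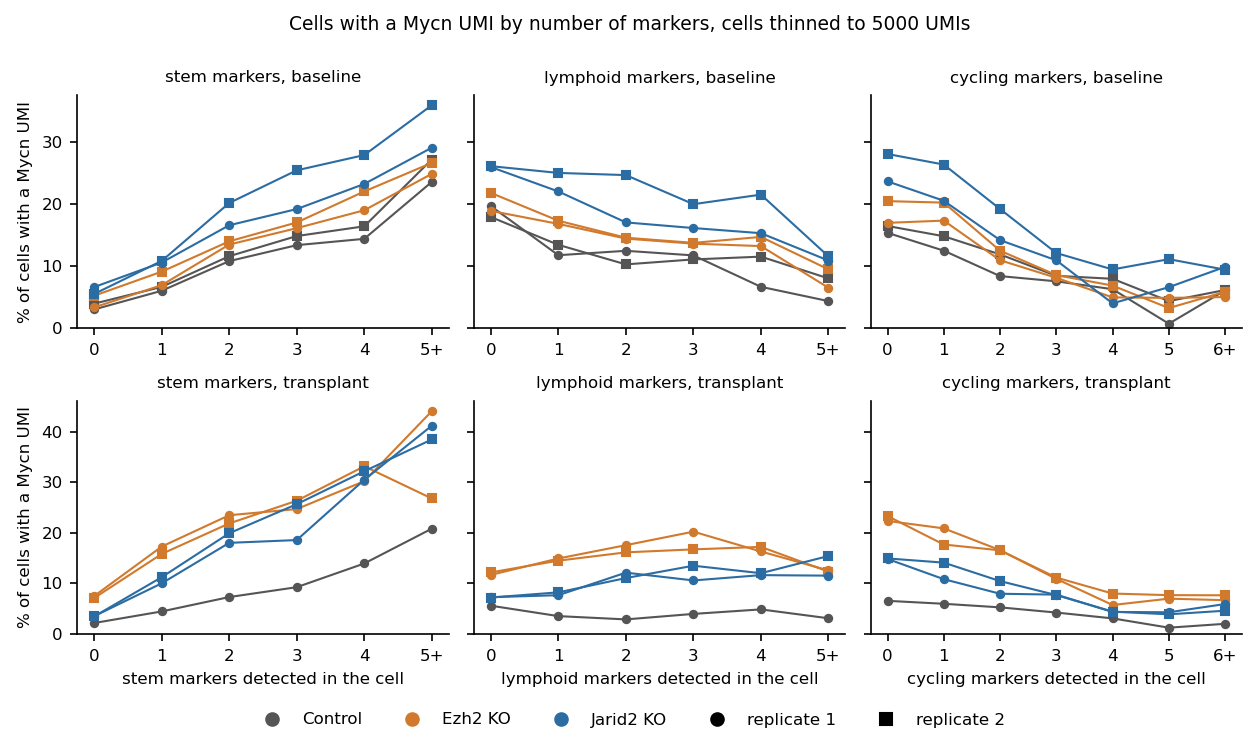
Percent of cells with a Mycn UMI, at 5000 UMIs per cell, against the number of stem, lymphoid and cycling markers detected, 1 line per library. The share is higher with 5 or more stem markers than with none in all 11 libraries, and its median drops with cycling markers, from medians of 18.8% and 15.0% with none to 6.18% and 5.94% with 6 or more.

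Antibody counts on the same baseline cells gave a grouping that used no transcript. Gates were tertiles of each antibody within a library, after a centred log ratio over 6 antibodies. CD150-high, CD48-low cells, the gate used for stem cells, had 65.4 and 69.3 CPM of Mycn in Control, 55.4 and 70.7 in the Ezh2 KO libraries, and 92.3 and 107 in those of Jarid2 KO. CD135-high, CD150-low cells, the gate of lymphoid-primed progenitors, had 18.0 and 20.5, 28.0 and 32.4, and 32.7 and 50.7. In the CD150-high, CD48-high gate the 6 libraries ran from 4.60 to 22.8 CPM, and in the CD150-low, CD135-low gate, with 64 to 143 cells, from 8.84 to 26.1. The CD150-high, CD48-low gate was above each other gate in all 6 libraries. The difference was 1.32 from CD135-high, CD150-low cells (log2, SE 0.11, edgeR adjusted p = 2.25e-06; 62.2% of genes called), 2.37 from CD150-high, CD48-high cells (SE 0.21, adjusted p = 6.12e-05; 53.8% called) and 2.17 from CD150-low, CD135-low cells (SE 0.13, adjusted p = 1.91e-08; 35% called).

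Cells carrying markers of other types were described without a test. Megakaryocyte-marker cells, at least 50 of them in 2 baseline libraries, had 61.7 and 68.5 CPM of Mycn, and erythroid-marker cells, in 3 libraries, 1.11 to 2.54. Baseline myeloid-marker cells had 4.81 to 9.94 CPM and B-marker cells 0.307 to 3.06. Dendritic-marker cells lay between, at 20.3 to 49.3 CPM, with both Jarid2 KO libraries the highest (45.4 and 49.3). The transplant libraries, made up largely of myeloid-marker cells, had 6.53 CPM in those cells in Control, 25.9 and 25.3 in the Ezh2 KO libraries and 16.5 and 19.1 in those of Jarid2 KO. Those values lie near those of the whole libraries. The myeloid-marker set also overlaps the classes above: in transplant Ezh2 KO 1 it held 81.4% of kept cells, and lymphoid-marker cells were 32.3%. B-marker cells of the transplant Ezh2 KO libraries had 4.56 to 5.22 CPM.

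Within stem-marker cells the baseline rise of Mycn in Jarid2 KO was present and its call did not depend on 1 library. Mycn rose by 0.70 against Control (log2, SE 0.05, 1.62-fold, edgeR adjusted p = 0.00583, 2.92e-04 to 0.0161 over 8 alternatives; 0.462% of genes called) and by 0.52 against Ezh2 KO (SE 0.05, adjusted p = 0.00435; 0.893% called). For Ezh2 KO against Control the value was 0.17 (SE 0.06, adjusted p = 0.206; 0.861% called). The summed level of the 10 stem markers over whole libraries was, like Mycn, highest in Jarid2 KO, but in Ezh2 KO it lay below Control: 1421 to 1445 CPM in Control, 1158 to 1325 for Ezh2 KO and 1677 to 1688 for Jarid2 KO, all 10 detected in every library. Its part in the whole-library result was not tested. In non-cycling cells Mycn rose by 0.88 in Jarid2 KO against Control (SE 0.06, adjusted p = 0.0286; 0.0231% called), a call lost without Jarid2 KO 2 (0.0774), and by 0.54 against Ezh2 KO (adjusted p = 0.0208; 1.37% called), a call lost without any 1 of the 4 knockout libraries. Ezh2 KO against Control gave 0.35 (adjusted p = 0.0769; 0.631% called) by the same edgeR test.

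In baseline lymphoid-marker cells Mycn rose by 0.74 in Ezh2 KO against Control (log2, SE 0.15, edgeR adjusted p = 0.0278; 11.2% of genes called), and leaving out any 1 of those 4 libraries ended the call. The levels overlapped, at 6.49 and 11.8 CPM in Control and 11.0 and 17.5 in Ezh2 KO. The Jarid2 KO difference there was 1.06 (SE 0.16) with an adjusted p of 0.165 by the same edgeR test (0.0287% called), and that between the knockouts 0.32 (adjusted p = 0.257; 4.09% called). In cycling-marker cells Mycn rose in Jarid2 KO against Ezh2 KO by 0.58 (adjusted p = 0.0280; 5.32% called), lost without either Jarid2 KO library, while against Control the 0.68 was not called (adjusted p = 0.319; 0% called by edgeR, with 1082 of 15235 genes at an unadjusted p below 0.05). It was called without Ezh2 KO 1 (edgeR adjusted p = 0.0408) or Ezh2 KO 2 (0.0366), libraries outside that contrast that share its fit. Ezh2 KO against Control gave 0.09 there (edgeR adjusted p = 0.649; 3.13% called).

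After transplantation Mycn was called against Control in both knockouts in all 4 classes. In stem-marker cells it rose by 1.47 in Jarid2 KO (log2, SE 0.19, edgeR adjusted p = 0.00449; 0.0693% of genes called) and by 1.25 in Ezh2 KO (SE 0.19, adjusted p = 0.00358; 0.875% called), on 97 Mycn UMIs in 276 Control cells. In lymphoid-marker cells the rises were 1.97 in Jarid2 KO (adjusted p = 0.0211; 0.121% called) and 2.29 in Ezh2 KO (adjusted p = 0.00179; 3.41% called). Cycling-marker cells gave 1.52 (adjusted p = 0.0386; 0.184% called) and 2.04 (adjusted p = 9.04e-04; 3.05% called), and non-cycling cells 1.43 (adjusted p = 0.0382; 0.098% called) and 2.05 (adjusted p = 0.00134; 3.21% called). With more markers required per class, the Jarid2 KO call in cycling-marker cells (1.71, edgeR adjusted p = 0.0521) and the Ezh2 KO call in stem-marker cells (1.11, adjusted p = 0.0801) were lost.

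The difference between the knockouts after transplantation was not the same in stem-marker and lymphoid-marker cells. Jarid2 KO minus Ezh2 KO was 0.23 in stem-marker cells (log2, SE 0.13, edgeR adjusted p = 0.544; 2.14% of genes called) and -0.32 in lymphoid-marker cells (SE 0.12, adjusted p = 0.159; 7.88% called), neither called, and with fewer markers per class the first was -0.057 (adjusted p = 0.871) and the other -0.48, then called (adjusted p = 0.0331). It was called at -0.52 in cycling-marker cells (adjusted p = 0.0254; 8.32% called) and -0.63 in non-cycling cells (adjusted p = 0.0102; 10.7% called). The first of these was lost without either Ezh2 KO library or Jarid2 KO 2. Tested directly, the Jarid2 KO minus Ezh2 KO difference was greater in stem-marker than in lymphoid-marker cells by 0.54 (SE 0.11, edgeR adjusted p = 7.68e-05; 5.65% called). This fit rests on few libraries and takes its spread largely from all genes together. Its p-values therefore do not measure the spread of Mycn alone. The Ezh2 KO minus Control difference was smaller in stem-marker cells by 1.03 (log2 difference -1.03, SE 0.26, adjusted p = 0.00568; 1.81% called), a call lost with more markers required per class (-0.99, adjusted p = 0.219), and that of Jarid2 KO was -0.49 (adjusted p = 0.693; 0.417% called). No such difference of Mycn was called at baseline, where the 3 values were -0.59, -0.38 and 0.21 for Ezh2 KO against Control, Jarid2 KO against Control and between the knockouts (edgeR adjusted p = 0.347, 1.00 and 0.796; 1.16%, 0.00612% and 0.905% called).

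Lymphoid-marker cells were also more numerous in the knockouts after transplantation, at 29.3% to 32.3% of kept cells for Ezh2 KO and 15.7% to 18.3% for Jarid2 KO against 13.1% for Control. The 10 lymphoid markers together had 1248 to 1329, 842 to 1067 and 445 CPM in the same order, all 10 detected in every library. Mycn within lymphoid-poor cells was 20.9 and 22.6 CPM in Ezh2 KO, 14.0 and 15.1 in Jarid2 KO and 7.08 in Control, so the groups kept their order there. The Jarid2 KO change against Control was 1.00 in those cells and not called (edgeR adjusted p = 0.0635), against 1.45 over all kept cells. At baseline, lymphoid-marker cells made up 7.96% to 16.29% of kept cells in Control. They made up 16.2% to 26.85% in Ezh2 KO and 6.88% to 9.29% in Jarid2 KO. Baseline B-marker cells made up 1.90% to 5.935% in Control, 9.275% to 17.5% in Ezh2 KO and 2.67% to 2.92% in Jarid2 KO. The part of composition in the whole-library values was not tested beyond these classes.

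Myc, the member that drives growth in most dividing cells, was not called between genotypes in any whole-library or within-class comparison by edgeR. Its baseline level was 91.6 and 137 CPM in Control, 121 and 143 in the Ezh2 KO libraries, and 109 and 131 in those of Jarid2 KO. The female library was the higher in each group, and the groups overlapped. The differences were 0.11 for Jarid2 KO against Control (log2, SE 0.10, edgeR adjusted p = 0.693), 0.27 for Ezh2 KO against Control (SE 0.10, adjusted p = 0.184) and -0.16 between the knockouts (SE 0.10, adjusted p = 0.357). After transplantation the level was 96.3 CPM in Control, 118 and 99.3 in the Ezh2 KO libraries, and 130 and 152 in those of Jarid2 KO. The Control library was the lowest and both Jarid2 KO libraries the highest, by 0.50 against Control (SE 0.16, edgeR adjusted p = 0.437) and 0.41 against Ezh2 KO (SE 0.13, adjusted p = 0.101). DESeq2 called the latter (0.41, adjusted p = 0.0331).

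Myc was detected in 31.2% to 43.2% of baseline and 34.3% to 46.9% of transplant cells at 5000 UMIs. Like Mycn it was lower in cycling-marker cells, which had 68.0 to 109 CPM against 101 to 169 in non-cycling cells at baseline, and 76.1 to 118 against 116 to 185 after transplantation. Within each library the cycling-marker value was the lower. The log2 changes were -0.42 (SE 0.04, edgeR adjusted p = 1.34e-05) and -0.55 (SE 0.02, adjusted p = 1.77e-08). CPM is a share of the UMIs of a class, so a lower value need not mean fewer Myc UMIs per cell. In the transplant Control library 1364 cycling-marker cells held 2325 Myc UMIs, and 1322 non-cycling cells held 2137. Between stem-marker and lymphoid-marker cells Myc differed by 0.09 at baseline (log2, SE 0.07, edgeR adjusted p = 0.285), where it turned to -0.21 with non-cycling cells alone (adjusted p = 0.00552), and -0.48 after transplantation (SE 0.04, adjusted p = 8.43e-08). By surface gate it was lower in CD150-high, CD48-low cells, at 80.7 to 135 CPM, than in CD135-high, CD150-low cells, at 98.7 to 160 (log2 change -0.31, SE 0.04, edgeR adjusted p = 1.05e-04). The other gate differences of Myc, 0.12 and -0.09, were not called. B-marker cells had 33.3 to 68.1 CPM of Myc, below the 136 to 176 of myeloid-marker cells at baseline.

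Mycl was scarce in every library, with 27 to 100 UMIs per baseline library and 52 to 135 per transplant library. Its baseline level was 0.918 and 0.458 CPM in Control, 0.332 and 0.876 in the Ezh2 KO libraries, and 0.298 and 0.477 in those of Jarid2 KO, and all groups overlapped. After transplantation it was 0.769 CPM in Control, 0.870 and 0.819 in the Ezh2 KO libraries, and 1.12 and 1.58 in those of Jarid2 KO, with both Jarid2 KO libraries the highest. No whole-library comparison was called: baseline changes ran from -0.86 (SE 0.59) to -0.24 (SE 0.57) with edgeR adjusted p from 0.544 to 0.839. The transplant changes were 0.74 for Jarid2 KO against Control (SE 0.28, edgeR adjusted p = 0.528), 0.06 for Ezh2 KO against Control (adjusted p = 0.952) and 0.69 between the knockouts (SE 0.21, adjusted p = 0.0935). In non-cycling transplant cells Mycl rose in Jarid2 KO against Ezh2 KO by 1.32 (SE 0.26, edgeR adjusted p = 0.0230), from 35 and 25 UMIs to 63 and 80. That call was lost without either Ezh2 KO library or Jarid2 KO 2.

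Mycl was nearly absent from stem-marker cells. The 6 baseline libraries held 6 Mycl UMIs in all their stem-marker cells and 117 in their lymphoid-marker cells, which puts lymphoid-marker cells 35.7-fold higher per UMI (exact 95% interval 15.9 to 99.2, counting error only). After transplantation stem-marker cells had 0 and lymphoid-marker cells 224, at least 14.6-fold higher (3 counts over the group). The CD150-high, CD48-low gate likewise held 0 and the CD135-high, CD150-low gate 147, at least 34.8-fold higher. Cycling-marker cells were lower, by -1.83 at baseline (log2, SE 0.23, edgeR adjusted p = 5.60e-05) and -1.12 after transplantation (SE 0.23, adjusted p = 0.00144). Dendritic-marker cells (at least 3 of Irf8, Siglech, Cd74 and 4 others) had 2.51 to 9.27 CPM of Mycl at baseline and 3.32 to 6.42 after transplantation. There both transplant Jarid2 KO libraries, 6.22 and 6.42 CPM, were above the other 3, at 3.32 to 3.46. Cells with a Mycn UMI had a Mycl UMI in 0% to 0.2198% of cases in both experiments, below the share in cells without Mycn in all 11 libraries. Erythroid-marker, megakaryocyte-marker and mast or basophil-marker cells had no Mycl UMI in the libraries with at least 50 of them. Those groups held 50 to 146 cells, and each was small enough to miss a gene this scarce.

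**Figure D5:**
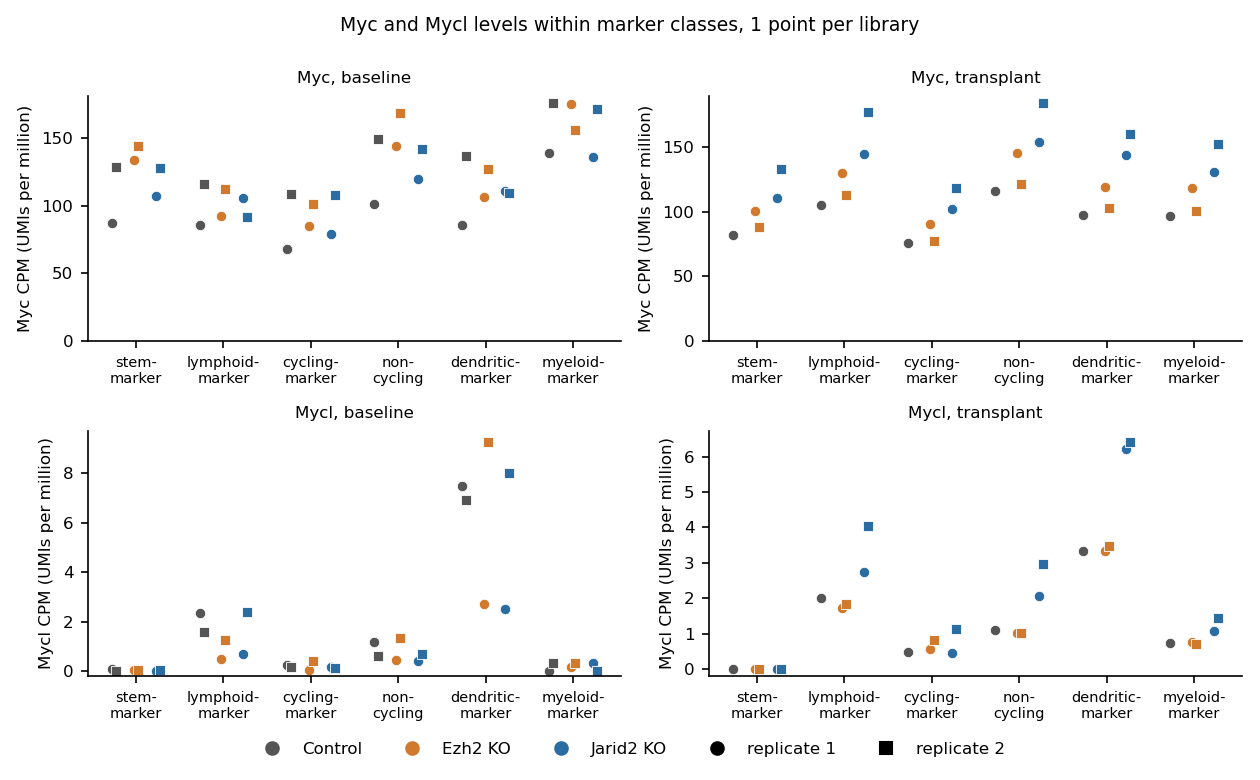
Myc and Mycl levels in CPM in stem-marker, lymphoid-marker, cycling-marker, non-cycling, dendritic-marker and myeloid-marker cells, 1 point per library. Mycl is at or near 0 in stem-marker cells and reaches 9.27 CPM in dendritic-marker cells, while Myc lies lower in cycling-marker than in non-cycling cells of the same libraries.

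Max, the shared partner, was called in no genotype comparison. It was at 72.7 and 67.4 CPM in baseline Control, 63.7 and 69.8 in the Ezh2 KO libraries, and 65.4 and 64.5 in those of Jarid2 KO, with Ezh2 KO overlapping both other groups and Jarid2 KO below Control. After transplantation it was at 47.0 CPM in Control, 50.9 and 48.9 in the Ezh2 KO libraries, and 52.8 and 63.0 in those of Jarid2 KO, lowest in Control. Its baseline log2 changes lay between -0.09 and -0.03 (edgeR adjusted p = 0.536 to 0.820) and its transplant changes between 0.01 and 0.24 (adjusted p = 0.162 to 0.990). The class differences were small. Max was lower in stem-marker than in lymphoid-marker cells at baseline (log2 change -0.18, SE 0.04, edgeR adjusted p = 0.00299), a call lost with non-cycling cells only (-0.12, adjusted p = 0.0622), and not called after transplantation (-0.09, SE 0.05, adjusted p = 0.174). Cycling-marker cells differed by 0.01 at baseline (SE 0.03) and by -0.08 after transplantation (SE 0.03, edgeR adjusted p = 0.0463), a call lost without any 1 of Control 1, Ezh2 KO 2, Jarid2 KO 1 or Jarid2 KO 2. Max was detected more often in cells with a Mycn UMI than in cells without one in all 11 libraries, by small margins: 27.3% to 33.0% against 26.96% to 30.7% at baseline. Myc was detected more often in Mycn-positive cells in 6 of 6 baseline and 2 of 5 transplant libraries. These are shares of thinned cells and were not tested.

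Max's other partners and their relatives form the MAX network, for which 9 genes were listed: the repressors Mxd1, Mxi1, Mxd3, Mxd4, Mnt and Mga, and the related sugar-response branch Mlx, Mlxip and Mlxipl. None was called in Jarid2 KO against Control in either experiment by edgeR, nor in Ezh2 KO against Control after transplantation, where 0.033%, 0.336% and 4.84% of all genes were called. In baseline whole libraries 1 of the 9 rose and 1 fell in Ezh2 KO against Control (3.47% of all genes called), and likewise 1 rose and 1 fell between the knockouts (5.91% called). Mxd3, the family member transcribed in dividing cells, had 9.29 and 5.86 CPM in Control, 17.6 and 11.8 in the Ezh2 KO libraries, and 8.12 and 7.14 in those of Jarid2 KO, with both Ezh2 KO libraries the highest. It rose in Ezh2 KO by 1.01 (log2, SE 0.13, edgeR adjusted p = 0.0346) and fell in Jarid2 KO against Ezh2 KO by 0.94 (SE 0.13, adjusted p = 0.0310). Mxi1 had 49.5 and 48.0 CPM in Control, 37.9 and 40.5 in the Ezh2 KO libraries, and 46.5 and 46.5 in those of Jarid2 KO, lowest in both Ezh2 KO libraries. It fell in Ezh2 KO by 0.27 (SE 0.04, adjusted p = 0.0443) and rose in Jarid2 KO against Ezh2 KO by 0.22 (SE 0.04, adjusted p = 0.0499).

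In transplant whole libraries the called network genes were those between the knockouts, again 1 of 9 in each direction, with 12% of all genes called. Mlx rose in Jarid2 KO by 0.48 (log2, SE 0.08, edgeR adjusted p = 0.0162), with 31.8 and 38.3 CPM against 25.0 and 26.2, and Mxd3 fell by 0.51 (SE 0.12, adjusted p = 0.0437), with 5.64 and 6.60 against 9.37 and 8.27. Mxd1, Mxd4, Mnt, Mga, Mlxip and Mlxipl were called in no whole-library comparison. The median change of the 9 genes lay between 0.01 and 0.06 in all 6 comparisons, against -0.00 to 0.01 over all genes. Mxd3 was the network gene most tied to division: it was 6.62 log2 units higher in cycling-marker than in non-cycling cells at baseline and 4.44 after transplantation (edgeR adjusted p = 5.63e-12 and 5.71e-10). Mxd4 and Mnt were lower there, by 0.73 and 0.55 at baseline (log2 changes -0.73 and -0.55, adjusted p = 9.64e-07 and 7.40e-07). The cycling list summed to 1478 to 1811 CPM in baseline Ezh2 KO against 1096 to 1252 in the other groups. Within baseline cycling-marker cells Mxd3 was also higher in Ezh2 KO, by 0.72 against Control (SE 0.11, edgeR adjusted p = 0.0320; 3.13% of genes called), and lower in Jarid2 KO against Ezh2 KO (-0.64, SE 0.11, adjusted p = 0.0321; 5.32% called). It was called in lymphoid-marker cells too, at 0.92 for baseline Ezh2 KO against Control (adjusted p = 0.0252; 11.2% called) and -0.73 between the transplant knockouts (adjusted p = 0.0399; 7.88% called). Mlx was called between the knockouts in non-cycling transplant cells (0.61, SE 0.10, edgeR adjusted p = 0.0108; 10.7% called).

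Of 13 genes for MYC stability and cofactors, such as the ubiquitin ligase Fbxw7 and the kinase Aurka, 1 was called in whole libraries, in baseline Ezh2 KO against Control (3.47% of all genes called) and between the baseline knockouts (5.91% called). Aurka, a mitotic kinase that also steadies the N-Myc protein, had 19.2 and 17.7 CPM in baseline Control, 28.9 and 24.6 in the Ezh2 KO libraries, and 19.1 and 19.5 in those of Jarid2 KO. It rose in Ezh2 KO by 0.58 (log2, SE 0.08, edgeR adjusted p = 0.0379) and fell in Jarid2 KO against Ezh2 KO by 0.49 (SE 0.08, adjusted p = 0.0397), and like Mxd3 it was higher in cycling-marker cells, by 4.67 at baseline. Of 34 well-known MYC target genes (ribosome assembly, translation, nucleotide and polyamine synthesis), none was called in whole libraries in either knockout against Control, where 0.033% (Jarid2 KO) and 3.47% (Ezh2 KO) of all genes were called at baseline and 0.336% and 4.84% after transplantation. In baseline lymphoid-marker cells 2 of the 13 cofactors and 1 of the 34 targets were called higher in Ezh2 KO against Control, with 11.2% of all genes called there, and in baseline cycling-marker cells 1 target was called lower in Jarid2 KO against Ezh2 KO, with 5.32% called. The targets' median change over whole libraries in baseline Jarid2 KO against Control was -0.11, with 31 of 34 below 0, against 0.00 for all genes. In baseline Ezh2 KO against Control it was -0.004, with 19 of 34 below 0. A relation of these medians to Mycn was not tested. After transplantation the targets' median was -0.03 in Jarid2 KO (21 of 34 below 0) and 0.02 in Ezh2 KO (14 of 34), against 0.01 for all genes in each. Ran, which acts in transport through nuclear pores, was the single target called in whole libraries, 1 of 34 where 5.91% of all genes were called. It fell in baseline Jarid2 KO against Ezh2 KO by 0.38 (SE 0.05, edgeR adjusted p = 0.0266), from 755 and 801 CPM to 584 and 635.

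By cell class the targets ran opposite to Mycn, and between cycling-marker and non-cycling cells opposite to Myc and Mycl too. Between stem-marker and lymphoid-marker cells they ran with Mycl, and after transplantation with Myc. These directions are of scaled counts, not of UMIs per cell. In cycling-marker against non-cycling cells 31 of 34 targets were higher and 2 lower at baseline (median 0.58 against -0.04 for all genes; 36% of genes called higher and 38.3% lower), and 29 were higher and 2 lower after transplantation (32.8% and 33.9% of genes). In stem-marker against lymphoid-marker cells 2 were higher and 26 lower at baseline (35.6% and 34% of genes), and 0 higher and 32 lower after transplantation (26.3% and 28.1%).

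Genes next to Mycn and Myc were called in no whole-library genotype comparison, where 0.033% to 12% of all genes were called. Within classes Pvt1 was called, higher by 0.92 in baseline lymphoid-marker cells of Ezh2 KO against Control (SE 0.16, edgeR adjusted p = 0.0192), with 11.2% of all genes called there. The neighbours present in the tables were Ddx1, Nbas and Fam49a (RefSeq Cyria) on chromosome 12 near Mycn, and the non-coding Pvt1 downstream of Myc, 4 of 6 listed names. Over the 6 whole-library comparisons their log2 changes ran from -0.25 to 0.27. Ddx1, the nearest, had 59.7 and 64.0 CPM in baseline Control, 60.2 and 59.1 in the Ezh2 KO libraries, and 61.3 and 62.5 in those of Jarid2 KO, all within 59.1 to 64.0. Its change in Jarid2 KO was 0.02 (SE 0.05, edgeR adjusted p = 0.909), where that of Mycn was 0.86.

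The genes whose level was most like that of Mycn, Myc and Mycl were ranked over the 11 libraries, by Pearson r of log2(CPM + 1) centred on the mean of the experiment, among 8517 genes with a mean of at least 10 CPM. The points share genotype groups and cell composition, and r is a description. For Mycn the first 5 were Igf2r (r = 0.974), the mannose 6-phosphate receptor that also clears Igf2, Vegfc (0.949), Ssbp3 (0.932), Tox (0.922) and Pdpk1 (0.918). Igf2r had 15.9 and 17.2 CPM in baseline Control, 20.5 and 22.2 in the Ezh2 KO libraries, and 27.4 and 36.5 in those of Jarid2 KO. After transplantation it had 2.46 in Control, 15.5 and 16.7 in the Ezh2 KO libraries, and 11.0 and 14.2 in those of Jarid2 KO. A likeness of its groups to those of Mycn follows from the ranking by r. At baseline, Control and Ezh2 KO overlapped for Mycn but not for Igf2r. For Myc they were Polr3k (0.921), Gmppb (0.920), Fam118b (0.910), Adpgk (0.882) and E2f4 (0.880). For Mycl they were Mpeg1 (0.855), a macrophage and dendritic gene, Fam91a1 (0.844), Msl3l2 (0.814), Plekhb2 (0.814) and Arid1a (0.812).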

How the data were processed

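Single-cell RNA counts of 11 KSL libraries, 6 baseline and 5 transplant, were analysed, with antibody counts for the baseline libraries. The authors deposited raw UMI counts for each gene and barcode. Per the file headers they were made with Cell Ranger 7.2.0 (baseline) and 6.1.2 (transplant), while the submitters' processing notes name Cell Ranger 3.1.0, Seurat 3.0, Partek and mm10. Groups were taken from the labels. The members and all gene lists were chosen with earlier results of these data known.

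Barcodes with at least 1000 UMIs, at least 500 genes and at most 10% mitochondrial UMIs were kept. The barcodes with the highest Scrublet scores (scanpy 1.11.5) were removed at 0.8% per 1000 barcodes, 6.13% to 8.30% of a library, since its automatic threshold marked 2 to 202. Counts were summed per library, or per library and class with at least 50 cells, and tested with edgeR 4.0.16 (R 4.3.3): filterByExpr, TMM, quasi-likelihood test, two-sided, Benjamini-Hochberg adjustment over all genes tested, threshold 0.05. All groups of an experiment entered 1 fit. Replicate number is sex at baseline and entered as a term in the baseline genotype fits, but not in the fit over both experiments. Same-numbered baseline libraries deviated together (r = 0.606 to 0.808 over genes), and transplant ones did not (r = 0.0188 over 8123 genes). Classes and gates used library as a block. Alternatives were DESeq2 1.42.0, RLE scaling, other filters, marker numbers and thinning depths, and leaving out each library. The fits were also run on simulated counts with known changes, and no result given here rests on that run.

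Named genes were the 4 members, Jarid2 and Ezh2 as a check of labels, each MAX network gene and neighbour, list genes called in a whole-library comparison (at most 8 per list and comparison), and the 5 genes most like Mycn, Myc and Mycl. Not every stem marker is named in the text. Sequences are from RefSeq. Intervals and floors of 3 counts cover counting error only.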

Additional observations from a re-analysis of the deposited data

Results flagged for a closer look

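Several differences of Mycn were unequal between settings of the same comparison, by a test of the inequality itself. The Ezh2 KO minus Control difference was 0.20 at baseline and 2.03 after transplantation, and the gap of 1.83 passed edgeR's test over all 11 libraries (SE 0.19, adjusted p = 0.0120). It rests on 1 transplant Control library, and without transplant Ezh2 KO 1 it was 1.79 with an adjusted p of 0.0561. The Jarid2 KO minus Ezh2 KO difference was 0.66 at baseline and -0.58 after transplantation, and its gap was -1.23 (SE 0.16, edgeR adjusted p = 0.0110). Both baseline Jarid2 KO libraries were above both Ezh2 KO libraries, and both transplant ones were below.

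Within the transplant experiment, the Ezh2 KO minus Control difference was smaller in stem-marker than in lymphoid-marker cells by a log2 difference of -1.03 (SE 0.26, edgeR adjusted p = 0.00568), on 97 and 55 Mycn UMIs in the Control classes. With more markers required per class it was -0.99 and not called (adjusted p = 0.219 by edgeR). The Jarid2 KO minus Ezh2 KO difference was larger in stem-marker cells by 0.54 (SE 0.11, edgeR adjusted p = 7.68e-05), from 2 libraries in each knockout. These p-values rest largely on a spread shared over all genes.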

How the results depend on the processing

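Of 931 alternative values, 785 kept their direction and their side of the threshold, 47 lost a call, 5 gained one, 28 turned sign and 66 moved. The higher Mycn in stem-marker than in lymphoid-marker cells, in CD150-high, CD48-low cells than in the other gates, and in non-cycling than in cycling-marker cells kept its call under every alternative run, as did the transplant rise in Ezh2 KO and the baseline rise of Jarid2 KO in stem-marker cells. The cause of the changes below was not tested.

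The baseline Mycn change of Jarid2 KO against Control was 0.72 in cells with at most 1 lymphoid marker (edgeR adjusted p = 0.172), 0.85 with RLE size factors (0.0545) and 0.86 with only the 2 groups compared (0.0563). Without the sex term, which is the replicate block at baseline, it was 0.86 (0.234). Jarid2 KO minus Ezh2 KO was 0.50 in cells with at most 1 lymphoid marker (0.115) and 0.66 without the sex term (0.0905). After transplantation, Jarid2 KO against Control was 1.00 in cells with at most 1 lymphoid marker (0.0635) and 1.48 in cells with a Y-linked and no Xist UMI (0.0660). Requiring more markers per class gave 1.71 for Jarid2 KO against Control (0.0521) and -0.39 for Jarid2 KO minus Ezh2 KO (0.137) in cycling-marker cells, 1.11 for Ezh2 KO against Control in stem-marker cells (0.0801), and -0.99 for the class difference of Ezh2 KO against Control (0.219). Requiring fewer gave -0.48 (0.0331) and -0.057 (0.871) for Jarid2 KO minus Ezh2 KO in lymphoid-marker and stem-marker cells.

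For Max, stem-marker minus lymphoid-marker was -0.12 at baseline with non-cycling cells only, no longer called (edgeR adjusted p = 0.0622), and -0.14 after transplantation with fewer markers, where it was called. The gate difference from CD150-high, CD48-high cells was 0.0087 with quartiles. Transplant Ezh2 KO minus Control was -0.016 in cells with a Y-linked and no Xist UMI, -0.047 with at most 1 lymphoid marker, -0.0033 with doublets kept and -0.011 with a stricter cell filter. Myc, stem-marker minus lymphoid-marker, was -0.21 at baseline with non-cycling cells only, and DESeq2 called its transplant Jarid2 KO minus Ezh2 KO difference at 0.41. Mycl was 0.50 for baseline Ezh2 KO minus Control with at most 1 lymphoid marker, -0.029 for the transplant one with the stricter filter, and -0.045 for transplant Jarid2 KO minus Ezh2 KO in cells with a Y-linked and no Xist UMI.

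Leaving out 1 library at a time moved Mycn from 0.79 to 0.93 for baseline Jarid2 KO minus Control, from 0.62 to 0.70 for baseline Jarid2 KO minus Ezh2 KO, from -0.61 to -0.53 for the transplant one, and from 1.71 to 1.96 for the Ezh2 KO difference between experiments. Within baseline classes Jarid2 KO minus Control ran from 0.61 to 0.74 in cycling-marker and 0.81 to 0.96 in non-cycling cells, Jarid2 KO minus Ezh2 KO from 0.54 to 0.63 and 0.46 to 0.62, and Ezh2 KO minus Control from 0.56 to 0.92 in lymphoid-marker cells. Transplant Jarid2 KO minus Ezh2 KO in cycling-marker cells ran from -0.58 to -0.46. The uncalled baseline class differences ran from -0.78 to 0.075 for Jarid2 KO minus Control and -0.12 to 0.54 for Jarid2 KO minus Ezh2 KO. For Max the ranges were -0.11 to 0.052 for baseline Ezh2 KO minus Control, -0.14 to 0.017 for the baseline knockouts, -0.063 to 0.065 for transplant Ezh2 KO minus Control, -0.0027 to 0.027 and -0.10 to -0.054 for cycling-marker cells at baseline and after transplantation, and -0.099 to -0.069 and -0.044 to 0.022 against the CD135-high and CD150-high, CD48-high gates. Myc ran from -0.055 to 0.29 for baseline Jarid2 KO minus Control, -0.078 to 0.24 for transplant Ezh2 KO minus Control and -0.022 to 0.22 against the CD150-high, CD48-high gate. Mycl ran from -1.22 to 0.83, -1.80 to 0.25 and -1.28 to 0.32 for baseline Ezh2 KO against Control, Jarid2 KO against Control and between the knockouts, and -0.031 to 0.13 for transplant Ezh2 KO minus Control.

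With a replicate block on the 4 knockout transplant libraries, whose shared numbers did not pair them, Jarid2 KO minus Ezh2 KO was -0.58 for Mycn (edgeR adjusted p = 0.0199), and 1508 genes were called against 1898. The number of genes called ran from 1 to 251 for baseline Jarid2 KO minus Control (6 as reported), 13 to 1377 for Ezh2 KO minus Control (630) and 13 to 1599 for Jarid2 KO minus Ezh2 KO (1075), and after transplantation from 7 to 209 (53), 162 to 1170 (763) and 434 to 2436 (1898). The low counts of Mycl limit every statement on it.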
